A study of Mus musculus with 9 samples.

Results

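Imprinted genes were followed in E14Tg2a mouse embryonic stem cells (mESCs) that had lost RING1B or only its ligase activity. The 46 genes are a named list of imprinted genes with a probe on the array, out of 21713 genes measured. The list was chosen with earlier results of these data known. For each gene 1 probe was read, the brightest over all arrays. They belong to 19 imprinted clusters, 8 of which are represented by 1 gene. By textbook assignment 25 are expressed from the maternal allele, 20 from the paternal allele and Gnas from either allele depending on the isoform. The assignments need not hold in every tissue and were not checked in these cells. Maternally or paternally expressed below refers to them and not to a measurement. Transcript levels were measured on single-colour Agilent arrays in 3 groups of 3 samples. WT is the parental E14Tg2a line, a male line of the inbred strain 129P2/OlaHsd. KO (Ring1B -/-) is a line derived from it in which exon 3 of Rnf2, the gene of RING1B, is deleted on both alleles. I53A (Ring1B I53A/I53A) is a derived line in which both alleles encode RING1B without E3 ligase activity toward histone H2A. Cells of all 3 groups were cultured with serum and LIF. The study calls the samples of a group biological replicates, but separate cultures are not described, nor is more than 1 line per mutant genotype. The p-values measure the spread among samples as hybridised, part of which may be technical, and line and mutation cannot be told apart.

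Imprinted genes are transcribed mainly from the copy inherited from the mother or mainly from the copy inherited from the father. For most of them the difference is set by DNA methylation laid down in the egg or the sperm at imprinting control regions. Such regions are called germline differentially methylated regions (DMRs). Their methylation is kept through the divisions of the early embryo by factors such as ZFP57, TRIM28 and DNMT1. Genes lie in clusters in which a single control region can act on several neighbours, often through a long noncoding RNA or through the insulator protein CTCF. Imprints are known to be unstable in cultured mESCs, and Polycomb complexes contribute to silencing of the repressed copy in some clusters, mostly in the placenta. The arrays measured the summed level of both copies, since the line is inbred and the probes cannot tell the alleles apart. In bulk RNA, fewer cells that express a gene and less RNA per cell cannot be told apart either.

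Values are log2 intensities after quantile normalisation. A gene was called when limma, fitted to all 9 arrays, gave a Benjamini-Hochberg adjusted p under 0.05 over all probes and a change of more than 2-fold. Of the 46 genes, 27 were well above background on every array, 7 on none and 12 on some. The mESC label was checked against 9 markers with a probe, all of which were detected in each group (Pou5f1 read 13.44 for WT, 13.24 for KO and 13.67 for I53A). Sox2 was the marker of this list called lower in KO, with a log2 fold change of -1.03 (adjusted p = 0.0425). The Rnf2 probe read 8.27 to 8.47 in WT, 7.35 to 8.08 in KO and 8.59 to 9.10 in I53A, without a call. Its place relative to exon 3 was not determined, so it does not check the labels. Both slides held all 3 groups, but a group always occupied the same column, so array column and genotype cannot be told apart. Each slide row held 1 array of each group, and arrays of a row deviated together from their group means, with correlations of 0.12 to 0.43 against -0.32 to 0.14 across rows.

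The sequences that the main results turn on are the probes of H19, the imprinted gene with the most probes, and the promoters of Zrsr1 and Mcts2. H19 lies on chromosome 7 (GRCm38.p6, chr7:142575530-142578146 in RefSeq) and is transcribed into a noncoding RNA. Its 6 probes are numbered from the brightest to the dimmest in WT, are 60 bases long and share no stretch of 12 or more bases, so they read separate parts of the transcripts. They are shown in lower case throughout because no part of them was singled out.

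H19 probe 1: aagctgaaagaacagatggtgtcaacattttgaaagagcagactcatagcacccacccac
H19 probe 2: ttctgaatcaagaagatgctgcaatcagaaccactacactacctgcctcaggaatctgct
H19 probe 3: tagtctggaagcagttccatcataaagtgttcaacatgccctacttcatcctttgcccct
H19 probe 4: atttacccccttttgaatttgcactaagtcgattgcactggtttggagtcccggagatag
H19 probe 5: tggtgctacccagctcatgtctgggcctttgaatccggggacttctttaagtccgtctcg
H19 probe 6: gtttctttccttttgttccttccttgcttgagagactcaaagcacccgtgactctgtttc

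Zrsr1 and Mcts2 are retrogenes, intronless copies of X-linked genes that were inserted into an intron of another gene, and each has a maternally methylated germline DMR at its promoter. The 250 bases before their transcription starts, from RefSeq promoters of build GRCm38.p6, are shown because both genes rose in KO while their host genes were not called. The Zrsr1 stretch is chr11:22971755-22972004 and the Mcts2 stretch chr2:152686898-152687147, both on the plus strand. Capitals mark TGCCGC or, for the other strand, GCGGCA, the core motif that ZFP57 binds when it is methylated.

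Zrsr1 promoter: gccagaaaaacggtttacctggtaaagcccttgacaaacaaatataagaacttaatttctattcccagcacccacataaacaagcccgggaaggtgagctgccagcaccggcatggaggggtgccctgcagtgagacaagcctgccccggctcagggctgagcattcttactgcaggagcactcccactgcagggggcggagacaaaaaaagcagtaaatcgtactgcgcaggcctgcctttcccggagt
Mcts2 promoter: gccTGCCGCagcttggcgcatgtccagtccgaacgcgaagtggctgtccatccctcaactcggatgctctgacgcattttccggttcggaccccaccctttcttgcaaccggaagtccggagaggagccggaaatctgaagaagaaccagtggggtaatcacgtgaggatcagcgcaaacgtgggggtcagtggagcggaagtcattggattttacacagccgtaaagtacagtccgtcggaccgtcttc

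The Zrsr1 stretch held 8 CpG sites and no copy of the motif, and the Mcts2 stretch held 20 CpG sites and 1 copy. Over 300-base promoter windows, which add the first 50 bases of the transcript, the motif was present in 10 of 37 imprinted genes (27.0%). These 37 are the genes with an entry among the RefSeq promoters. Impact, Peg10 and Sgce, which have a germline DMR at the promoter, are among those without an entry. The motif was present in 3 of the 8 genes with an entry and such a DMR, and in 11.6% of all 32851 promoters. The median number of CpG sites per window was 16 in the imprinted genes and 7 in all promoters, a difference that was not tested. A match is a description of the letters and not of binding.

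The first comparison asked which imprinted transcripts differed where RING1B protein was lost. In KO against WT, 5 of the 46 genes were called higher (H19, Zrsr1, Mcts2, Dlk1 and Ndn) and 2 lower (Impact and Ppp1r9a). That is 10.9% and 4.35% of the list, where 2.92% and 1.17% of all genes were called higher and lower. The list was chosen with earlier results of these data known, so its shares do not speak for imprinted genes in general. The base differed too, as 27 of the 46 genes and 9884 of all 21713 were well above background on every array. The median log2 fold change was -0.11 over the list and -0.02 over all genes. The remaining 39 genes had log2 fold changes between -0.95 and 0.62. Values of KO and WT did not overlap for 15 of the 45 genes measured on all 6 arrays, 6 higher and 9 lower, where 12.2% and 13.5% of all genes did not overlap in these directions. Within the 46 genes and at the brightest probe, called genes came from 7 clusters, with a single called gene in each. This depends on which genes were listed, since Dio3 beside Dlk1 and Ascl2 near H19, on a second list read below, were also called higher. The calls of H19, Dlk1, Ndn and Ppp1r9a ended with another background correction (normexp), and all 7 ended on slide 1 alone, with 2 arrays per group.

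**Figure D1:**
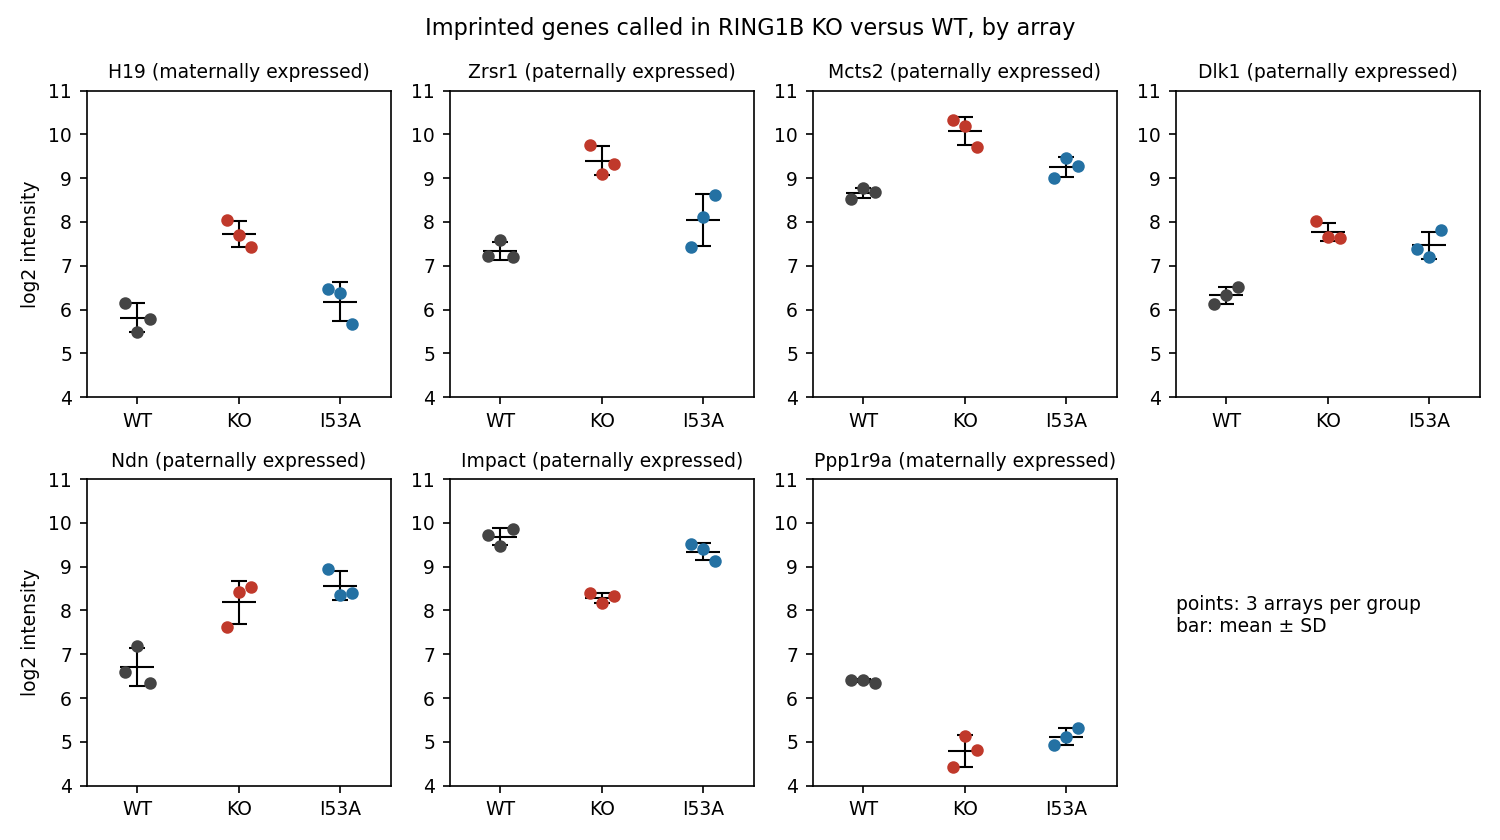
Log2 intensity (vertical axis) of the 7 imprinted genes called in KO against WT, on each of the 3 WT, 3 KO and 3 I53A arrays. Points are arrays and bars the mean ± SD. KO arrays lie apart from WT arrays in every panel. I53A arrays lie near WT for H19 and Impact, between WT and KO for Mcts2 and near KO for Dlk1, Ndn and Ppp1r9a.

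Among maternally expressed genes H19 was the single gene called higher. H19 is a noncoding RNA that hosts a growth-restraining microRNA and shares its enhancers with Igf2. Its brightest probe read 6.16, 5.50 and 5.78 in WT, 8.04, 7.69 and 7.44 in KO and 6.48, 6.38 and 5.67 in I53A. All KO arrays lay above all WT and I53A arrays, and the WT and I53A arrays overlapped. The log2 fold change was 1.91 ± 0.30 (SE, n = 3 per group, limma adjusted p = 0.00536) in KO and 0.37 ± 0.30 (limma adjusted p = 0.756) in I53A. WT was well above background on 2 of 3 arrays.

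The other H19 probes gave larger differences. All 6 probes were called higher in KO, and log2 fold changes of probes 2 to 6 ran from 2.87 to 3.69. Probe 4 read 3.55, 3.90 and 4.53 in WT, 7.68, 7.59 and 7.77 in KO and 4.70, 4.34 and 4.30 in I53A. It was not well above background on any WT or I53A array, so KO was at least 12.9-fold above WT and at least 9.39-fold above I53A. A bound against the lowest detected signal was likewise taken for the other probes dim on every WT array, and it was at least 6.75-fold for probe 3, at least 4.83-fold for probe 5 and at least 3.89-fold for probe 6. Probe 2 was well above background on 1 of 3 WT arrays. In I53A none of the 6 probes was called against WT. Over all 30170 probes 2.73% were called higher and 1.11% lower in KO, 0.235% and 0.0928% in I53A, and 0.958% and 0.368% in KO against I53A. Igf2, the paternally expressed growth factor of the same cluster, was not well above background on any array and read 2.66 ± 0.30 in WT, 2.62 ± 0.36 in KO and 3.06 ± 0.43 in I53A (SD, n = 3).

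**Figure D2:**
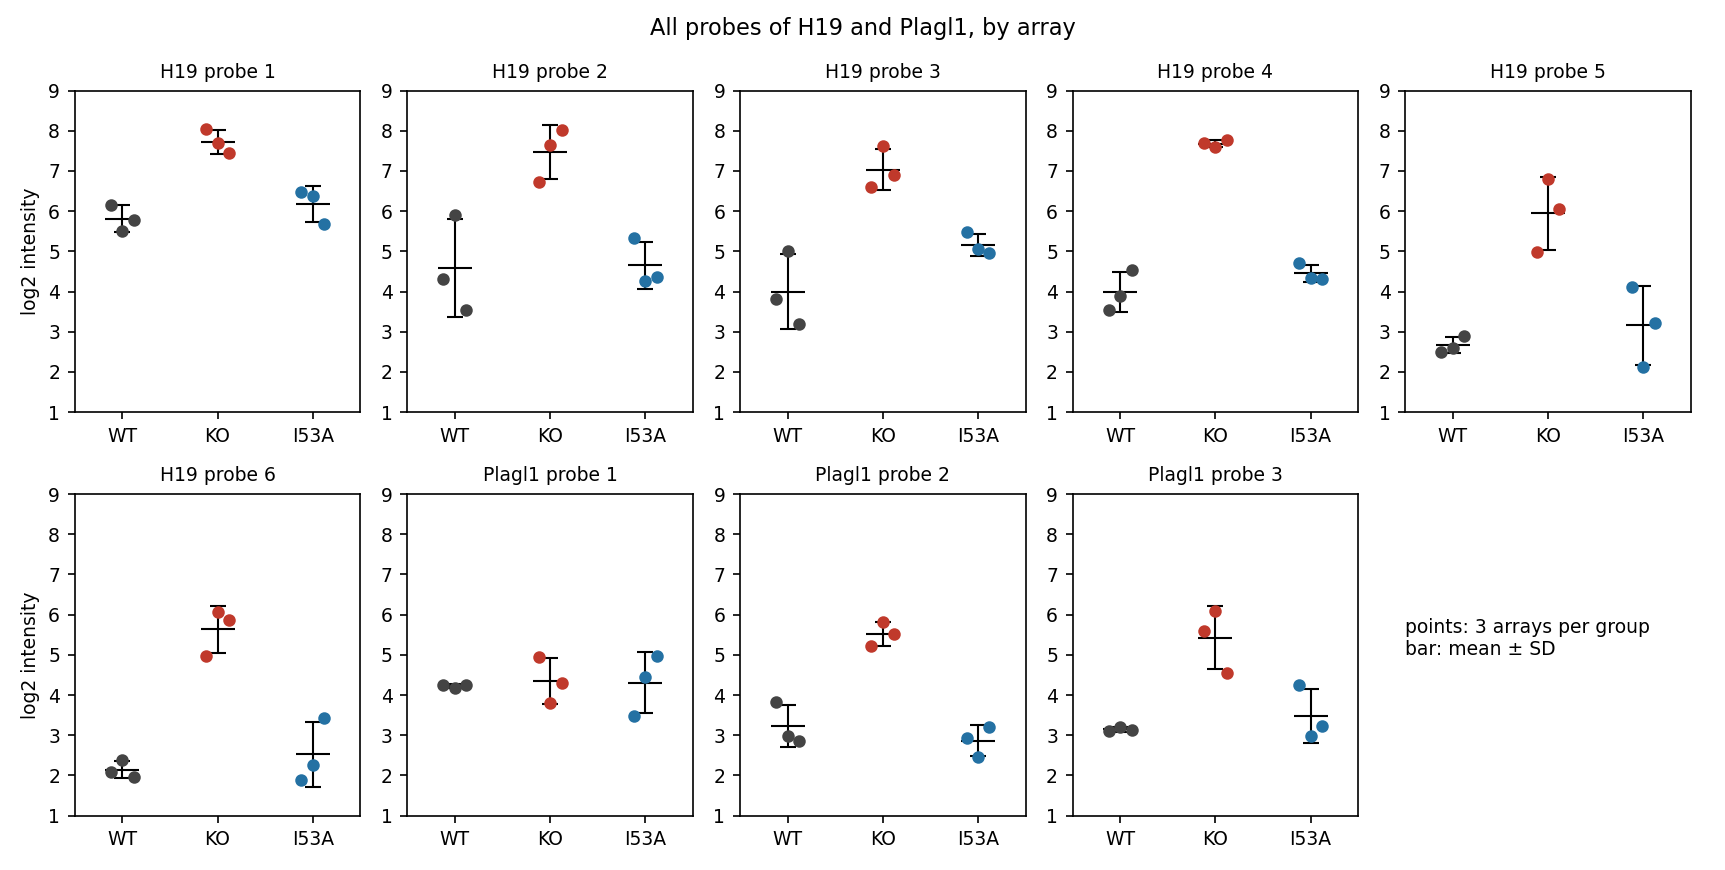
Log2 intensity (vertical axis) of the 6 H19 probes and the 3 Plagl1 probes on each array, numbered from brightest to dimmest in WT. Points are arrays and bars the mean ± SD. KO lies above WT for all H19 probes and for Plagl1 probes 2 and 3, while Plagl1 probe 1 overlaps between groups.

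Zrsr1 had the largest log2 fold change of the 46 genes at the brightest probe. It encodes a protein related to the small subunit of the splicing factor U2AF and is expressed from the paternal allele. It read 7.23, 7.58 and 7.20 in WT, 9.75, 9.10 and 9.33 in KO and 7.42, 8.11 and 8.60 in I53A. All KO arrays were above all others, and I53A overlapped WT through its lowest array. The log2 fold change was 2.05 ± 0.32 (limma adjusted p = 0.00555) in KO and 0.71 ± 0.32 (adjusted p = 0.544; 95% interval from just below 0 to 1.41) in I53A. Commd1, the maternally expressed host gene that encodes a copper homeostasis protein, read 9.71 ± 0.71 in WT and 10.32 ± 0.55 in KO (SD, n = 3), a log2 fold change of 0.61 ± 0.40 (adjusted p = 0.49). Zrsr2, the X-linked parent of Zrsr1, was looked up after these values were seen and its brightest probe read 7.63 in both groups, with a log2 fold change of 0.01 (adjusted p = 0.996).

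Zrsr1, Commd1 and Grb10 lie on chromosome 11, which as a whole shifted in KO. Its 1709 genes had a median log2 fold change of 0.22 between KO and WT and of -0.01 between I53A and WT, and 7.49% of them were called higher in KO. Relative to that median Zrsr1 stood at 1.83, Commd1 at 0.39 and Grb10 at -0.83. Zrsr1 and Commd1 read above 7 on every array, and the median level of such brighter genes of the chromosome differed by 0.56, as given below. That is a difference of medians, whereas 0.22 is a median of differences over all genes of the chromosome. Which shift applies to Zrsr1 and Commd1 was not tested, so their values relative to the chromosome depend on the measure taken. Over the alternatives the lowest KO log2 fold change of Commd1 was 0.055, and it was called in none. Zrsr1 kept its call when centred on the chromosome. Among the 11 genes with a start within 500 kb of Zrsr1 none was called, and their median log2 fold change was 0.26. Grb10, an adaptor that restrains insulin and IGF receptor signalling, read 6.29, 6.28 and 6.78 in WT, 6.1, 5.71 and 5.70 in KO and 6.61, 6.40 and 6.44 in I53A. KO lay below all other arrays, but the log2 fold change of -0.61 ± 0.23 (limma adjusted p = 0.198) was not called. Its call depended on the centre. Another centre was the median level of the brighter genes of each chromosome (mean log2 above 7). Relative to the mean over chromosomes, this level differed between KO and WT by 0.56 on chromosome 11. With this centre Grb10 had a log2 fold change of -1.17 and was called (limma adjusted p = 0.0232). Its neighbour Ddc, the imprinted gene of aromatic amino acid decarboxylase, was called higher in KO by 1.73 (adjusted p = 0.0103).

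Mcts2 encodes a translation initiation and recycling factor and is expressed from the paternal allele. It read 8.53, 8.77 and 8.68 in WT, 10.32, 10.19 and 9.72 in KO and 9.0, 9.47 and 9.29 in I53A. The groups formed 3 separate ranges, with I53A in the middle. This gave a log2 fold change of 1.42 ± 0.24 (limma adjusted p = 0.0088) in KO and 0.59 ± 0.24 (adjusted p = 0.479; 95% interval 0.06 to 1.13) in I53A. Its host gene H13, the maternally expressed gene of signal peptide peptidase, read 9.32 ± 0.27 in WT, 9.12 ± 0.19 in KO and 9.75 ± 0.09 in I53A (SD, n = 3), and its KO log2 fold change was -0.20 ± 0.23 (adjusted p = 0.707). A dimmer H13 probe read 6.56, 6.59 and 6.97 in WT and 5.97, 6.33 and 5.86 in KO. Its log2 fold change of -0.66 was not called (limma adjusted p = 0.192). The other dimmer H13 probes had KO log2 fold changes of 0.11 and 0.08. The X-linked parent of Mcts2 was not looked up, and whether the Mcts2 probe also reads the transcript of that parent was not tested.

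**Figure D3:**
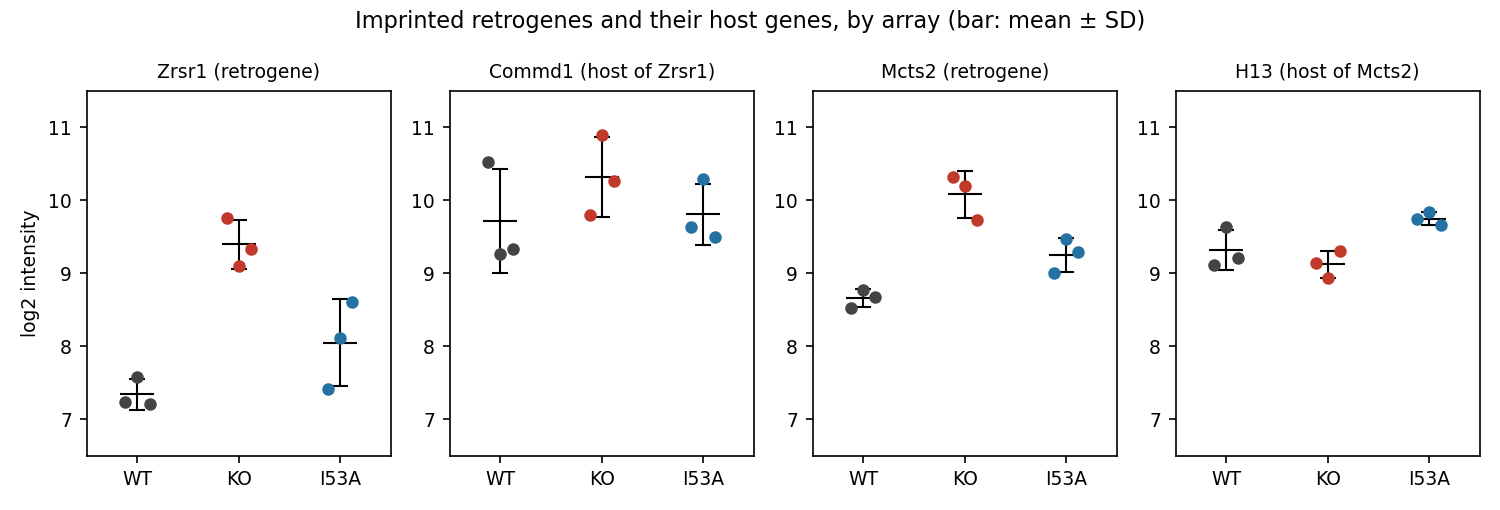
Log2 intensity (vertical axis) on each array for the retrogenes Zrsr1 and Mcts2 and for their host genes Commd1 and H13. Points are arrays and bars the mean ± SD. The brightest probe of each gene is shown. Both retrogenes lie higher on all KO arrays than on all WT arrays, whereas KO and WT arrays overlap for both hosts.

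Dlk1, a transmembrane protein of the Notch ligand family that holds back adipocyte differentiation, is expressed from the paternal allele. It read 6.13, 6.34 and 6.51 in WT, 8.01, 7.66 and 7.64 in KO and 7.39, 7.20 and 7.80 in I53A. Both mutants lay above WT and overlapped each other. Against WT the log2 fold change was 1.44 ± 0.24 (limma adjusted p = 0.00848) in KO and 1.14 ± 0.24 (adjusted p = 0.104) in I53A. Meg3, the maternally expressed noncoding RNA of the cluster, was not called. Its brightest probe read 11.20, 11.34 and 10.27 in WT, 9.86, 10.02 and 10.08 in KO and 10.05, 9.86 and 10.19 in I53A. Both mutants lay below WT at this probe. Its log2 fold change was -0.95 ± 0.29 (limma adjusted p = 0.11) in KO and -0.91 ± 0.29 (adjusted p = 0.335) in I53A. Without WT 3, its lowest WT array, Meg3 was called lower in KO (log2 fold change -1.28, adjusted p = 0.0302). At a dimmer Meg3 probe both mutants overlapped WT. Its log2 fold change was -0.45 in KO (limma adjusted p = 0.54) and -0.29 in I53A (adjusted p = 0.843). Rtl1, a paternally expressed gene derived from a retrotransposon, read 6.82 ± 0.11 in WT, 6.48 ± 0.25 in KO and 6.35 ± 0.15 in I53A (SD, n = 3) and was not called.

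Ndn encodes necdin, a growth suppressor of the MAGE family found in neurons, and is expressed from the paternal allele of the Snrpn cluster. It read 6.60, 7.18 and 6.34 in WT, 7.62, 8.42 and 8.52 in KO and 8.94, 8.35 and 8.39 in I53A. All mutant arrays were above all WT arrays. The log2 fold change was 1.48 ± 0.32 (limma adjusted p = 0.0314) in KO and 1.85 ± 0.32 (adjusted p = 0.051) in I53A. Leaving out any of WT 1, WT 3, KO 2 and KO 3 ended the KO call, with adjusted p up to 0.121. The other 5 genes of this cluster were not called at their brightest probe. Snrpn, which encodes a spliceosome protein and carries the control region at its promoter, read 10.75 ± 0.46 in WT, 10.59 ± 0.36 in KO and 11.09 ± 0.32 in I53A (SD, n = 3), with a KO log2 fold change of -0.16 ± 0.31 (adjusted p = 0.855). A dimmer Snrpn probe read 10.29, 10.49 and 10.42 in WT and 9.49, 9.35 and 9.28 in KO and was called lower (log2 fold change -1.03, adjusted p = 0.0183). Magel2 and Mkrn3, paternally expressed like Ndn and placed beside it, were near or below background, and Ube3a, the maternally expressed ubiquitin ligase gene, had a KO log2 fold change of 0.26 ± 0.36.

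Impact, a paternally expressed gene on chromosome 18 whose product restrains the eIF2 kinase GCN2, was lower in KO. It read 9.72, 9.47 and 9.85 in WT, 8.39, 8.17 and 8.32 in KO and 9.51, 9.40 and 9.13 in I53A. KO lay below every other array, and the I53A and WT ranges overlapped. Against WT the log2 fold change was -1.39 ± 0.22 (limma adjusted p = 0.00564) in KO and -0.34 ± 0.22 (adjusted p = 0.69) in I53A. None of the 5 genes with a start within 500 kb was called.

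Ppp1r9a encodes neurabin, an actin-binding protein that anchors protein phosphatase 1, and is expressed from the maternal allele of the Peg10-Sgce cluster. Its brightest probe read 6.42, 6.40 and 6.35 in WT, 4.42, 5.14 and 4.81 in KO and 4.93, 5.11 and 5.31 in I53A. Both mutants lay below WT, and KO was well above background on 1 of 3 arrays. The log2 fold change was -1.60 ± 0.24 (limma adjusted p = 0.00442) in KO and -1.27 ± 0.24 (adjusted p = 0.0667) in I53A. The probes of this gene disagreed, as a second, annotated to more of its transcripts, had a KO log2 fold change of 0.20 (adjusted p = 0.76) and was well above background on no WT array. In the same cluster Sgce, the gene of epsilon-sarcoglycan, read 8.96 ± 0.04 in WT, 8.72 ± 0.16 in KO and 9.17 ± 0.12 in I53A (SD, n = 3) without a call. Peg10, a gene derived from a retrotransposon that shares its promoter region with Sgce, was well above background on 1 of 9 arrays.

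**Figure D4:**
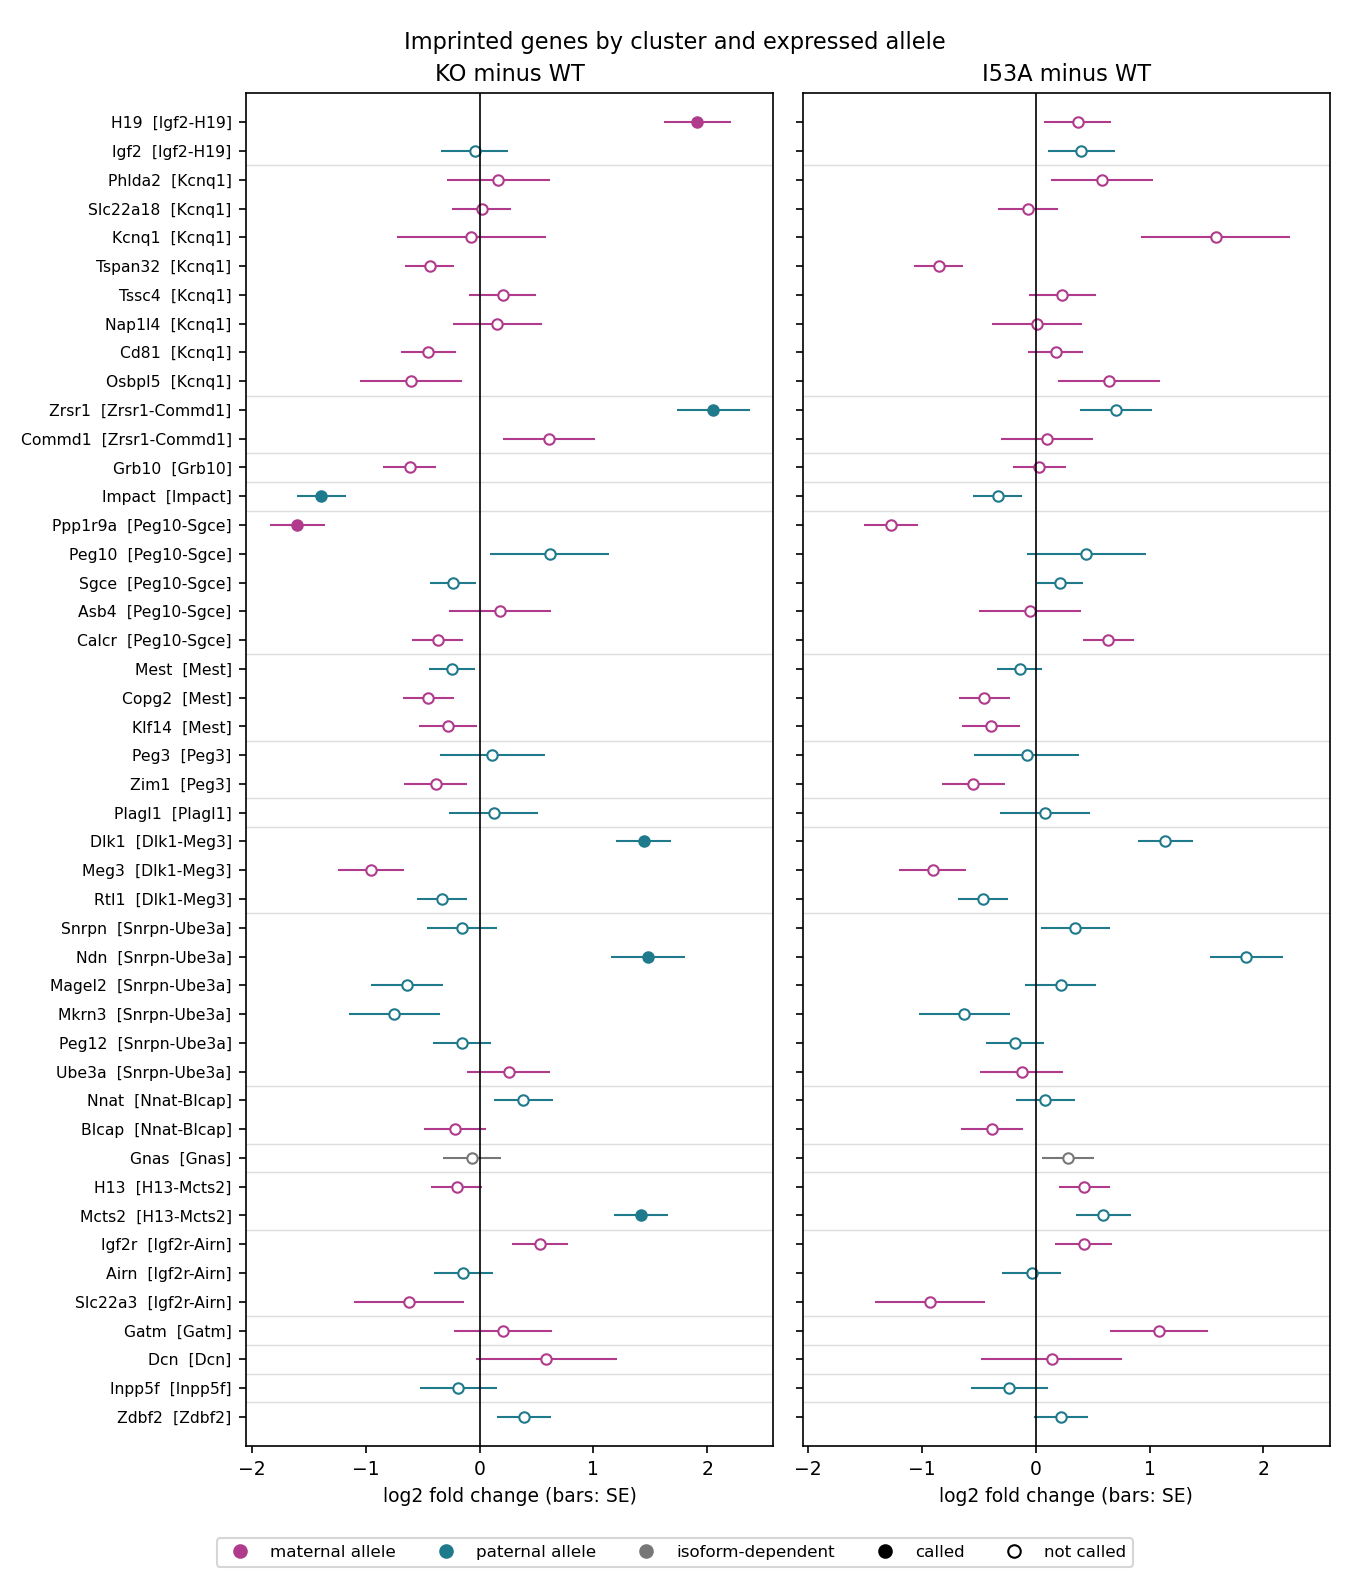
Log2 fold change (horizontal axis) of all 46 imprinted genes in KO against WT and in I53A against WT, with SE bars. Genes are grouped by cluster, colours give the expressed allele and filled points are called. Filled points appear in the KO panel alone, 5 to the right and 2 to the left of 0.

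In the remaining clusters none of the 46 genes was called at its brightest probe. The 8 genes of the Kcnq1 cluster, all maternally expressed, had KO log2 fold changes between -0.60 and 0.20, and its brightest gene, the histone chaperone gene Nap1l4, read 10.88 ± 0.14 in WT, 11.04 ± 0.76 in KO and 10.89 ± 0.56 in I53A (SD, n = 3). Plagl1, a zinc finger transcription factor gene, was not well above background on any array at its brightest probe, which read 4.22 ± 0.05 in WT and 4.35 ± 0.58 in KO (SD, n = 3). Its dimmer probes 2 and 3 were both called higher in KO, by at least 3.10-fold and at least 3.35-fold by the group means. Probe 3 was well above background on 2 of 3 KO arrays. Probes 2 and 3 share 48 bases with 2 differences, so they read the same stretch of the transcript.

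In the Igf2r-Airn cluster, Igf2r, the receptor that clears IGF2, read 8.50, 8.91 and 9.04 in WT and 9.54, 9.18 and 9.33 in KO. KO lay above WT, but the log2 fold change of 0.53 ± 0.25 (limma adjusted p = 0.306) was not called. Gnas, which encodes the alpha subunit of the stimulatory G protein, read 13.86 ± 0.27 in WT and 14.14 ± 0.07 in I53A (SD, n = 3), and its spot was an outlier on KO 3, leaving 13.71 and 13.88 in KO. A dimmer Gnas probe read 7.67, 8.16 and 7.73 in WT and 6.43, 6.87 and 7.05 in KO. Its log2 fold change of -1.07 just missed a call (limma adjusted p = 0.0504). The remaining Gnas probes were not well above background on any array. Blcap, a gene of a small membrane protein, read 6.70 ± 0.31 in WT and 6.48 ± 0.29 in KO (SD, n = 3). Mest, which encodes a hydrolase-like protein, read 8.94 ± 0.13 and 8.70 ± 0.14, Inpp5f, a phosphoinositide phosphatase gene, 6.03 ± 0.39 and 5.85 ± 0.50, and Zdbf2, a zinc finger gene, 5.43 ± 0.27 and 5.83 ± 0.26 in these groups. Peg3, a zinc finger gene, was not well above background on any array. Gatm, the creatine synthesis enzyme gene, was well above background on 1 of 9 arrays, and Dcn, the gene of the proteoglycan decorin, on 5 of 9.

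By expressed allele, 4 of 20 paternally expressed genes were called higher in KO (Zrsr1, Mcts2, Dlk1 and Ndn) and 1 lower (Impact). Of 25 maternally expressed genes, 1 was called higher (H19) and 1 lower (Ppp1r9a). Median log2 fold changes were -0.09 for paternally and -0.20 for maternally expressed genes, and the difference between the alleles was not tested. Imprinted genes of the other list, read below, were not assigned an allele and are not in these counts, although 5 of them were called higher in KO. The counts by allele therefore hold for the chosen genes and not for imprinted genes in general. Of the 11 genes with a germline DMR at their promoter, 2 were called higher (Zrsr1 and Mcts2) and 1 lower (Impact), against 3 and 1 of the other 35. Beside these counts stand the 2.92% of all genes called higher and 1.17% called lower, to be compared with 20.0% and 5.0% of the paternally and 4.0% and 4.0% of the maternally expressed genes.

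The second comparison asked which imprinted transcripts differed where RING1B was present without ligase activity. By limma none of the 46 genes was called in I53A against WT, in either direction, where 0.29% of all genes were called higher and 0.111% lower. Before adjustment 9 had a p under 0.05, 6 of them above WT and 3 below, where 5.83% and 3.94% of all genes passed this threshold in these directions. The median log2 fold change was 0.09, and by allele 0.03 for maternally and 0.15 for paternally expressed genes. I53A and WT did not overlap for 10 genes in the higher and 6 in the lower direction, where 8.72% and 9.69% of all genes did not. Unadjusted 95% intervals of the I53A log2 fold change were 1.13 to 2.57 for Ndn, 0.60 to 1.67 for Dlk1 and -1.80 to -0.74 for Ppp1r9a, and -0.29 to 1.02 for H19 and -0.82 to 0.14 for Impact. With probes dim on most arrays left out of the test, these 3 genes were called.

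The third comparison tested the mutants against each other. Of the 46 genes, H19 was called higher in KO than in I53A, with a log2 difference of 1.55 ± 0.30 (limma adjusted p = 0.0335), and Impact lower, with a difference of -1.05 ± 0.22 (adjusted p = 0.0468). Of all genes 1.06% and 0.405% were called in these directions. Both calls were close to the threshold and ended in most fits that left out an array, with adjusted p up to 0.102 for H19 and 0.16 for Impact, and both ended with slide row as a block (adjusted p = 0.0619 and 0.0869), although H19 probes 2, 4, 5 and 6 were called as well. The difference was 1.35 ± 0.32 for Zrsr1 (adjusted p = 0.0846) and 0.82 ± 0.24 for Mcts2 (adjusted p = 0.168). For Dlk1, Ndn and Ppp1r9a it was 0.30 (95% interval -0.23 to 0.84), -0.37 (-1.09 to 0.35) and -0.33 (-0.86 to 0.20). KO and I53A did not overlap for 4 genes in the higher and 10 in the lower direction, where 7.84% and 8.12% of all genes did not.

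Imprinted genes outside the 46 were read from a second list, of which 26 of 33 had a probe. In KO 5 were called higher and none lower. They were Cdkn1c, a cell cycle inhibitor gene of the Kcnq1 cluster (1.29, adjusted p = 0.0217), Ascl2, a transcription factor gene needed in the placenta (1.97, adjusted p = 0.0142), Dio3, the thyroid hormone deiodinase gene beside Dlk1 and Meg3 (1.80, adjusted p = 0.00501), Ddc and Qpct, a glutaminyl cyclase gene (1.41, adjusted p = 0.0257). Cdkn1c was also called in I53A, with a log2 fold change of 1.84 (adjusted p = 0.0204). Ascl2 and Tnni2, a troponin gene (1.51, adjusted p = 0.0394), were the called genes among 27 with a start within 500 kb of H19. None was called within this distance of Dlk1, Ndn or Ppp1r9a. Of 16 imprint maintenance factors 15 had a probe, and 1 was called, Dppa3, which protects methylation in the early embryo. Dppa3 read 6.15 in WT, 7.46 in KO and 6.39 in I53A, a KO log2 fold change of 1.31 (adjusted p = 0.0286).

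Markers of other cell types also differed in KO. Of 14 primitive endoderm markers, 5 were called higher in KO (Col4a1, Gata6, Gata4, Sparc and Sox17) and none in I53A. Their mean log2 intensity was 5.13 to 5.23 on WT arrays, 6.0 to 6.27 on KO arrays and 5.31 to 5.40 on I53A arrays, and Gata4 was at 4.53 in KO. The median log2 fold change of this list in KO was 1.02. The other lists moved less and not in a single direction. Of 10 trophoblast markers with a probe, 2 were called higher in KO (Plac1 and Eomes) and none lower, but 4 had an unadjusted p under 0.05 below WT. The median was -0.21, and array means were 7.27 to 7.40 in WT, 7.23 to 7.28 in KO and 7.41 to 7.56 in I53A. Of 12 fibroblast markers 1 was called higher (Thy1) and none lower, with 4 below WT at an unadjusted p under 0.05. Their median was -0.34, and the KO array means of 5.34 to 5.46 lay below those of WT, 5.58 to 5.82, and of I53A, 5.58 to 5.78. Of 9 mesoderm markers 2 were called higher (Mesp2 and Eomes), with a median of 0.11 and array means of 4.63 to 4.74 in WT, 4.85 to 5.13 in KO and 4.54 to 4.95 in I53A.

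The mean level of the neural markers was higher on all arrays of both mutants than on any WT array, while their median difference was near 0. Of 8, 2 were called higher in KO (Nes and Neurog1) and 1 in I53A (Nes, log2 fold change 2.82, adjusted p = 0.00884). Array means were 5.14 to 5.33 in WT, 5.58 to 5.82 in KO and 5.62 to 5.70 in I53A, and the median log2 fold changes 0.10 in KO and -0.04 in I53A. Ndn was higher than WT on all arrays of both mutants, and Magel2 and Mkrn3 beside it, near or below background, were called in neither. The part of any of these cell types in the values of Ndn, H19, Dlk1 and the other called genes was not tested.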

How the data were processed

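Polyadenylated RNA of 9 mESC samples was measured on 1 single-colour array each. The authors labelled cRNA with Cy3, scanned the slides and extracted spots with Agilent Feature Extraction 11.5.1.1, so that the deposited scan files hold background-subtracted processed intensity values in arbitrary units. The authors' series table holds log2 values after averaging of repeated probes and quantile normalisation, for 30170 probes assigned to Ensembl genes (mm10), with their fold changes and p-values, which were not used.

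Values were recomputed from the processed intensities with R 4.3.3 and limma 3.58.1. Control and outlier-flagged spots were left out, log2 values of repeated spots were averaged, and 55681 non-control probes were quantile normalised over the 9 arrays. The 30170 probes of the series table were then fitted with a mean per group and eBayes (two-sided, Benjamini-Hochberg over all of them), as the study's methods describe. Groups and sample numbers came from the titles; the source names of the KO samples all say replicate 1. Probes were named through the accession or symbol in the table or through the Ensembl gene: 24558 directly, 2371 through the Ensembl gene, 19 with several symbols and 3222 without. Between 45.4% and 57.4% of tested probes were well above background on an array, and the number of arrays limits the precision. A fold is given as a bound where a group was dim on all of its arrays and had values under the lowest detected signal. The bound compares group means, with values under the lowest detected signal raised to it. It takes no account of the spread among arrays.

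The genes and lists were chosen with earlier results of these data known. Named were the genes called in any comparison, the chromosome 11 genes, the brightest gene of each cluster, and called genes of the second imprinted list, the maintenance factors and the 500 kb windows. Zrsr2, other genes of a called gene's cluster, Igf2r and single dimmer probes were added after their values were seen. Not every called gene of the 500 kb windows is reported here. Cluster, allele and promoter DMR are textbook assignments. The fit was tested on simulated data. Alternatives changed scaling, background correction (with the median spot signal and an offset of 50, since the scan files hold no mean signal), dim probes, slide, slide row (added after seeing the data), replicate number, arrays, samples, values, spot averaging, probes per gene and chromosome centring.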

Additional observations from a re-analysis of the deposited data

Results flagged for a closer look

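The mutants differed from each other for 2 of the 46 genes in the direct test, with a log2 difference of KO minus I53A of 1.55 for H19 (limma adjusted p = 0.0335) and -1.05 for Impact (adjusted p = 0.0468), calls that ended with slide row as a block (adjusted p = 0.0619 and 0.0869). For H19 all 3 KO arrays were above all I53A arrays, and for Impact all 3 were below.

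Of 6 probes of these genes on the arrays but outside the series table, 2 were called in KO against WT, and neither was used in the comparisons above. The Dlk1 probe read 7.36, 6.53 and 6.80 in WT, 8.18, 8.75 and 8.04 in KO and 8.49, 8.53 and 8.33 in I53A, a KO log2 fold change of 1.43 ± 0.29 (limma adjusted p = 0.0293). The Impact probe read 9.44, 9.13 and 9.42 in WT, 7.95, 8.38 and 7.88 in KO and 9.30, 8.83 and 8.83 in I53A, a KO log2 fold change of -1.26 ± 0.25 (adjusted p = 0.0265). In both cases KO and WT did not overlap. The probes for Airn, Meg3, Mkrn3 and Plagl1 were not called. The Meg3 probe had a log2 fold change of -0.52 in KO and of -0.14 in I53A.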

How the results depend on the processing

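Counts of called genes were recomputed under 21 alternatives, 9 of which leave out an array and 1 of which, slide row as a block, was chosen after seeing the data. In KO against WT the 5 higher and 2 lower calls became 2 (Mcts2 and Zrsr1) and 1 (Impact) with normexp background correction, and 0 and 0 on slide 1 alone, with 2 arrays per group. Averaging every probe of a gene gave a lower count of 1. Leaving out an array gave 4 to 5 higher and 2 to 3 lower calls. In I53A against WT the counts of 0 became 2 higher (Dlk1 and Ndn) and 1 lower (Ppp1r9a) without dim probes, 1 higher (Ndn) with slide as a block, 1 higher (Ndn) with averaged probes, and 0 to 1 higher and 0 to 0 lower when an array was left out. The count of 1 higher in KO against I53A became 0 with normexp, with slide or slide row as a block, on slide 1 alone and with only the 2 groups compared, 2 without dim probes (H19 and Zrsr1), 2 with the mean of all probes (H19 and Plagl1), and 0 to 1 when an array was left out. The count of 1 lower became 0 with 75th percentile scaling, normexp, slide or slide row as a block, slide 1 alone, the replicate block and only the 2 groups, 2 without dim probes and 2 with the mean of all probes (Calcr and Impact each time), and 0 to 0 when an array was left out; centred on the chromosome the 1 lower call was Grb10 and not Impact. Over the 3 groups together replicate numbers did not pair the samples. Correlations of same-numbered samples ran from -0.32 to 0.39 around a median of -0.04, the same as for different numbers. Same-numbered WT and I53A arrays did share a slide row and correlated at 0.39, 0.21 and 0.26. KO arrays of the same number lay in another row. Arrays of a slide row did deviate together, and with the row as a block the 5 higher and 2 lower calls of KO against WT and the counts of 0 in I53A against WT stayed, while H19 and Impact lost their calls in KO against I53A. With the replicate block KO against WT had 4 higher calls, losing Ndn, and 2 lower. The KO minus I53A difference of Ppp1r9a turned in sign, to 0.13, with averaged probes. Signal limits the 7 genes that were dim on every array. The causes of these changes were not tested.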
